A study of Mus musculus with 24 samples.

Results

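The 7 genes described here carry antigen presentation by MHC class II: the chain genes H2-Aa, H2-Ab1 and H2-Eb1, the invariant chain Cd74, the peptide loading genes H2-DMa and H2-DMb1, and the transactivator Ciita. They were chosen by their gene identifiers and make up 7 of the 13162 genes with a row in any of the authors' deposited tables. RNA was sequenced from interscapular brown fat, a thermogenic tissue, taken at ZT10 from male C57BL/6J mice that were 10 to 12 weeks old. Both genotypes carried floxed Hdac3 alleles. Control mice are labelled as floxed only, and KO mice also carried Ucp1-cre, which removes Hdac3, a histone deacetylase, where the Ucp1 promoter is active, that is in brown adipocytes. Immune and vascular cells of the pad should therefore keep Hdac3. In each genotype there was a group kept at 22 °C, a group held at 15 °C for 24 h and then at 22 °C for a further 24 h, and a group with 7 d at 22 °C after the same cold. Each of these 6 groups has 4 libraries, 24 in all. The labels call these biological replicates without tying each one to an animal, so a p-value measures the spread between these libraries. The design sets brown fat with and without Hdac3 side by side, before and after a short cold exposure.

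MHC class II molecules display peptides from proteins taken up by a cell to CD4+ T cells. An alpha and a beta chain pair in the endoplasmic reticulum with the invariant chain, which guards the groove until endolysosomal proteases degrade it and the H2-DM heterodimer exchanges its remnant for a peptide. The genes are best known from dendritic cells, B cells and macrophages, interferon gamma induces them in other cell types, and CIITA is the coactivator that they share. CIITA does not bind DNA itself: it is held at class II promoters by the factors RFX, CREB and NF-Y, which sit on the X and Y boxes.

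The promoters of 4 of the 7 genes were matched by symbol among the RefSeq promoters of GRCm38.p6, each of 300 bases with 250 before the gene's start. The stretches that hold the X and Y boxes are printed because class II promoters are known for these boxes. Their part in the levels of the genes was not tested. Capitals mark GNAACT, part of the X box, and TGATTGG, part of the Y box, on the strand of the gene. The stretches lie at chr17:34287857-34287914 on the minus strand for H2-Aa, at chr17:34305766-34305822 on the plus strand for H2-Eb1 and at chr17:34153087-34153144 on the plus strand for H2-DMb1, all upstream of the annotated start.
H2-Aa: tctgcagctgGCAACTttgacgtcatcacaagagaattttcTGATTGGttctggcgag
H2-Eb1: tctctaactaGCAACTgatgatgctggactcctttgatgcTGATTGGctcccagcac
H2-DMb1: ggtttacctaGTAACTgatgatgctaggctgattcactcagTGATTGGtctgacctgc

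The gap between the capitals was 25 bases in H2-Aa and H2-DMb1 and 24 in H2-Eb1. GNAACT followed by TGATTGG on the strand of the gene, 10 to 40 bases apart, was found in 44 of 32851 promoters (0.134%), which belong to 40 genes. These letters were chosen after the sequences had been read. Searched alone on both strands, GNAACT occurred in 42.8% of promoters and TGATTGG in 7.82%. The shorter core AGCAAC occurred in 14.8% and, of these 3 members, only in H2-Eb1. The core ATTGG, which lies inside TGATTGG, occurred in 37.4%. H2-DMa, with 2 promoter entries, held the pair in neither. Among class II genes that are not members, H2-Eb2 held the pair, while H2-Oa, H2-Ob and H2-DMb2 had TGATTGG and no GNAACT. H2-Oa, H2-Ob and H2-Eb2 did hold the shorter core AGCAAC on the strand of the gene, and H2-DMb2 did not. No promoter of Cd74, H2-Ab1 or Ciita was used here.

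Library totals ran from 4637903 to 12538811 reads. The deposited tables hold group means without single libraries, and the whole reads behind these means were solved for, which gave a value per library for all 7 members. The 4 libraries of a group are called a to d by falling total, and these letters do not stand for replicate numbers. Levels are given in RPKM, reads scaled to gene length in kilobases and to the library total. Hdac3 stood at 23.4 to 28.7 RPKM in the 12 Control libraries and at 5.82 to 9.0 in the 12 KO libraries, with no overlap. The brown fat marker Ucp1, the uncoupling protein, had deposited means at 22 °C of 1607 RPKM in Control and of 32.8 in KO. After 24 h of recovery they were 4966 in Control and 3884 in KO (edgeR adjusted p = 0.779). After 7 d they were 2948 and 2163 (edgeR adjusted p = 0.578). Mylpf, a skeletal muscle gene, stood at 341 RPKM in Control 7 d library b, 283 in KO 7 d library a, 79.8 in Control 24 h library c, 50.8 in Control 22 °C library a, 48.0 in KO 22 °C library d and 43.8 in KO 24 h library b, and at 0.139 to 7.07 in the other 18.

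The class II genes spanned a wide range of levels, and their order by mean level was the same in all 6 groups. In Control at 22 °C, Cd74 averaged 76.9 ± 7.65 RPKM (SD, n = 4) and H2-Aa 65.7 ± 11.1, which overlapped. H2-Ab1 at 38.7 ± 7.13 RPKM and H2-Eb1 at 35.0 ± 4.78 also overlapped each other and lay below both. The loading genes were lower, with H2-DMb1 at 4.12 ± 1.09 RPKM and H2-DMa at 2.83 ± 0.0718. Ciita was lowest at 0.963 ± 0.239 RPKM and rested on 31 to 61 reads per library, against 551 to 959 for Cd74. The precision of Ciita, H2-DMa and H2-DMb1 is limited by these low counts, and this holds in every group. H2-DMb2, a near copy of H2-DMb1, had 1 to 7 reads per library, and the sources used here do not say how reads shared by such copies were counted, so the level of H2-DMb1 is uncertain, and the size of this uncertainty was not measured.

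**Figure D1:**
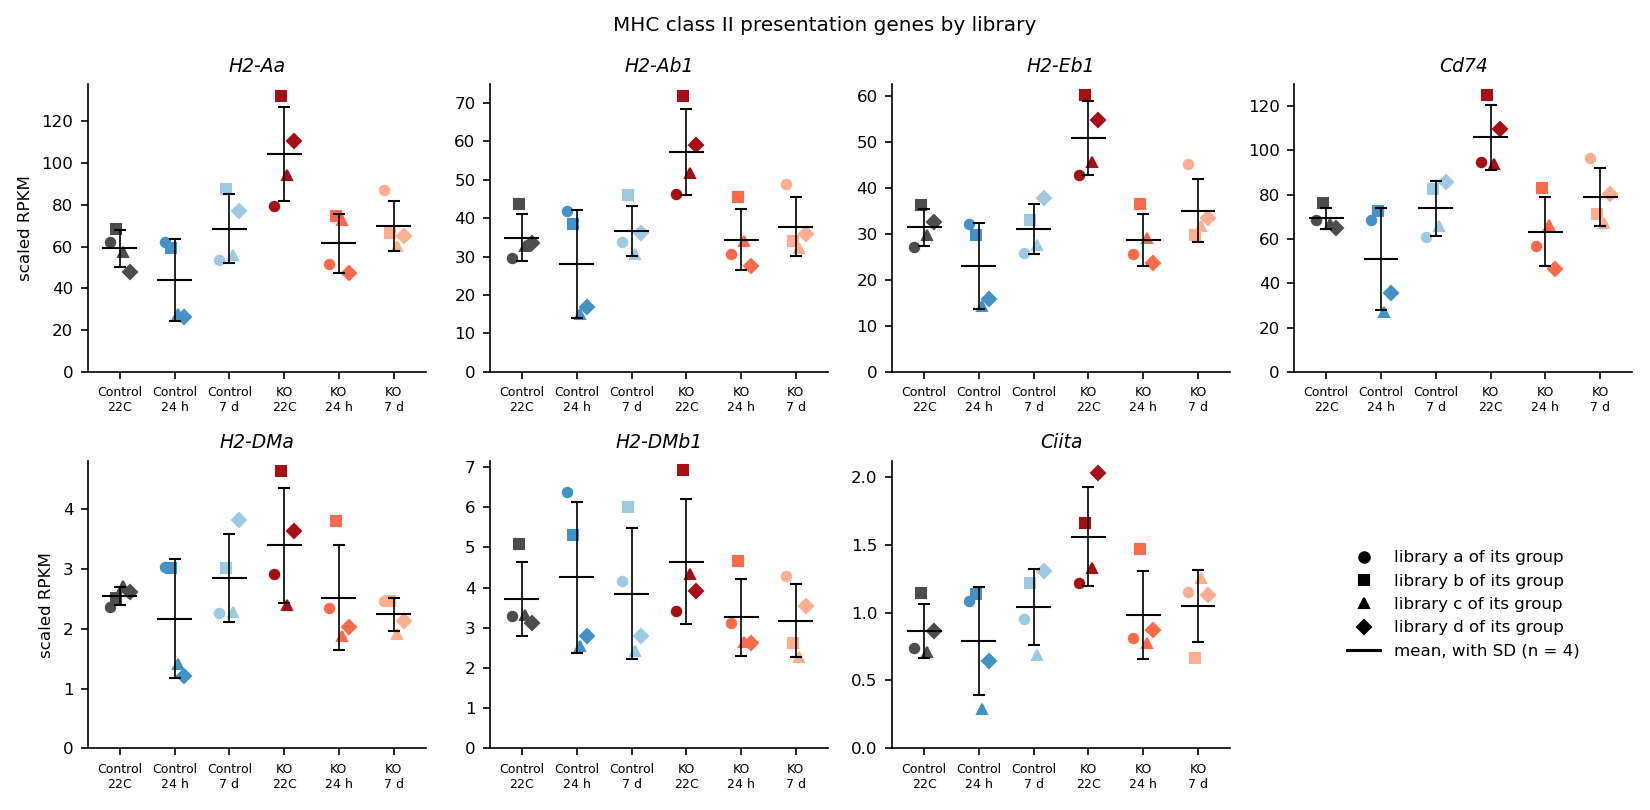
Levels of the 7 genes in the 24 libraries, in scaled RPKM (RPKM divided by the scaling factor of the library), with 1 marker shape per library letter and bars for the mean and SD of 4 libraries. KO at 22 °C has the highest mean for all 7 genes on this scale and Control 24 h falls into 2 high and 2 low libraries.

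KO against Control at 22 °C asks what loss of Hdac3 in brown adipocytes changes without a cold exposure. Of the 7 genes, 5 were higher in KO in the authors' deposited table at an adjusted p under 0.05, beside 16.3% of all 12710 genes in that table: H2-Aa, H2-Ab1, H2-Eb1, Cd74 and Ciita. The other two, the H2-DM genes, did not pass. The median log2 fold change of the 7 was 0.67 in the authors' deposited table, beside -0.01 over all its genes. In bulk tissue more cells of a type and more RNA per cell cannot be told apart.

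H2-Aa, the alpha chain of the I-A molecule, stood at 72.7, 77.4, 59.2 and 53.7 RPKM in Control libraries a to d and at 71.9, 128, 85.5 and 104 in KO. KO library a alone lay within the Control range. In unscaled RPKM none of the 7 genes was higher without overlap, beside 7.82% of genes higher and 31.9% lower. KO libraries have smaller scaling factors, 0.904 to 0.969 against 1.03 to 1.17 in Control. The factor is the median over genes of the ratio of a library to a common reference. Divided by these factors, H2-Aa ran from 79.5 to 132 in KO and from 48.0 to 68.7 in Control, with no overlap. In the authors' deposited table its log2 fold change was 0.80 with an adjusted p of 0.00491.

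H2-Ab1, the beta chain of I-A, stood at 34.5, 49.1, 33.7 and 37.6 RPKM in Control and at 41.7, 69.6, 46.7 and 55.5 in KO. H2-Eb1, the beta chain of I-E, stood at 31.6, 41.0, 30.7 and 36.5 RPKM in Control and at 38.8, 58.4, 41.3 and 51.6 in KO. For each, the highest Control library reached into the KO range in RPKM, and the scaled values did not overlap. The deposited log2 fold changes in the authors' deposited table were 0.69 for H2-Ab1 (adjusted p = 0.0211) and 0.67 for H2-Eb1 (adjusted p = 0.00751).

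Cd74, the invariant chain, stood at 80.1, 86.0, 68.8 and 72.8 RPKM in Control and at 85.7, 121, 84.9 and 103 in KO. Ciita, the transactivator, stood at 0.865, 1.29, 0.731 and 0.966 RPKM in Control and at 1.10, 1.61, 1.20 and 1.91 in KO. Both overlapped in RPKM and not after scaling, where Cd74 ran from 94.0 to 125 in KO and from 65.1 to 76.3 in Control. The authors' deposited table gave a log2 fold change of 0.59 for Cd74 (adjusted p = 0.0338) and of 0.83 for Ciita (adjusted p = 0.0298).

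H2-DMa stood at 2.77, 2.83, 2.80 and 2.93 RPKM in Control and at 2.64, 4.49, 2.17 and 3.41 in KO, so the KO libraries lay on both sides of Control. H2-DMb1 stood at 3.85, 5.73, 3.41 and 3.49 RPKM in Control and at 3.09, 6.70, 3.91 and 3.67 in KO. Their log2 fold changes in the authors' deposited table were 0.40 (adjusted p = 0.349) and 0.30 (adjusted p = 0.561).

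A limma voom fit on the recovered reads called the same 5 genes at 22 °C, beside 18% of 11065 genes, with adjusted p between 0.00848 and 0.0312. Scaled RPKM did not overlap for these 5, beside 16.5% of genes that were higher without overlap. Leaving out 1 library at a time kept H2-Aa and H2-Eb1 past the threshold in 8 of 8 fits, H2-Ab1 in 5, and Cd74 and Ciita in 3 each. The count fell to 2 without Control library a, without Control library c or without KO library b, and to 3 without Control library d or KO library d. No member had changed by 2-fold, and the authors marked 2 of the 7, H2-Aa and H2-Eb1, as Up beside 9.94% of genes, a mark that their tables give at an adjusted p under 0.01 and a fold over 1.5.

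**Figure D2:**
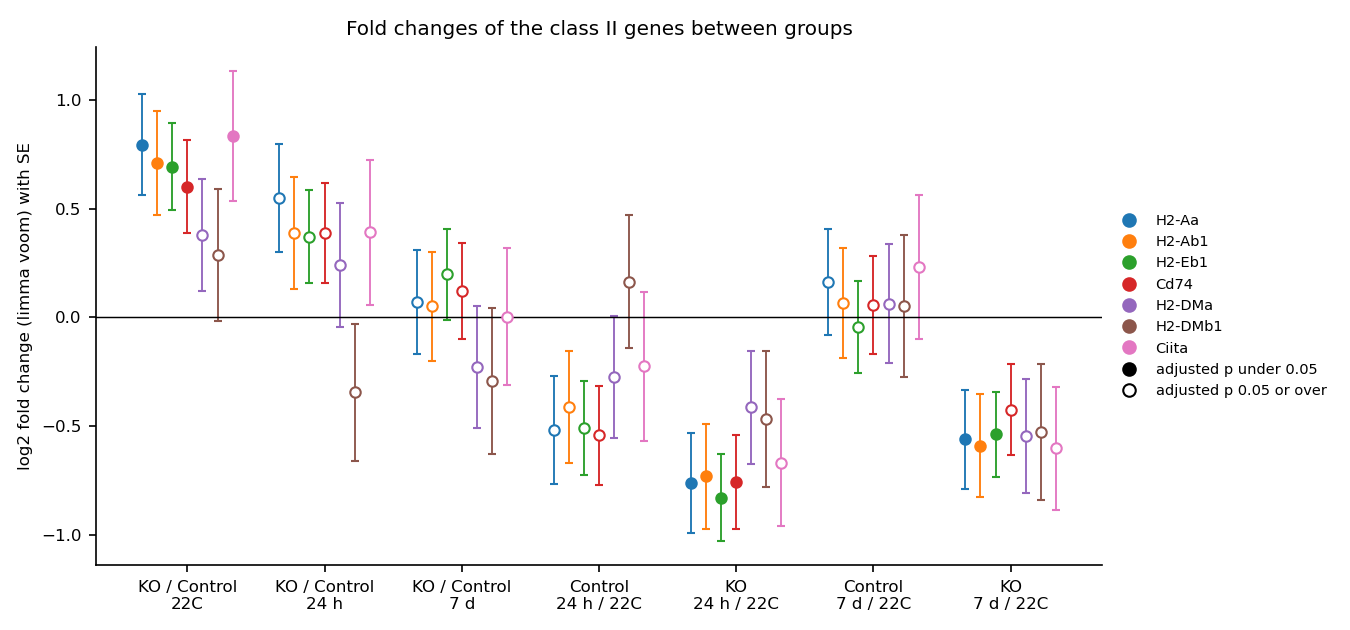
Log2 fold changes of the 7 genes with SE from limma voom on the recovered reads (y axis) in 7 comparisons (x axis), filled where the adjusted p is under 0.05. Filled points stand in KO against Control at 22 °C (5 genes), in KO at 24 h against 22 °C (4) and in KO at 7 d against 22 °C (3).

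Many class I and interferon gamma genes were also higher in KO at 22 °C, beside 16.3% of all genes. Of 20 class I presentation genes, which show peptides from inside the cell to CD8+ T cells, 14 were higher and 0 lower in KO in the authors' deposited table. B2m, the light chain of class I, rose from 434 to 1305 RPKM with a log2 fold change of 1.82 (adjusted p = 6.2e-20) there. The immunoproteasome subunits Psmb8 and Psmb9 rose by 2.05 each on the log2 scale in the authors' deposited table, and the peptide transporter subunit Tap2 by 1.38. Among 18 interferon gamma signalling genes 10 were higher and 0 lower. The GTPase Igtp had a log2 fold change of 1.93, the chemokine Cxcl9 one of 1.27 and Irf1 one of 1.12 in the authors' deposited table. Ifngr1, the ligand-binding receptor chain and the most abundant of the list, was at 54.3 and 55.9 RPKM (adjusted p = 0.166). Ifng itself was not analysed here. On the list medians the class II genes stood at 0.67, class I genes at 0.87 and interferon gamma genes at 0.76 log2.

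Of 10 regulators of class II transcription and turnover, 2 were higher and 1 lower in KO at 22 °C in the authors' deposited table. Irf4, a transcription factor of lymphoid and dendritic cells that brown adipocytes also use, went from 5.57 to 51.5 RPKM with a log2 fold change of 3.44 (adjusted p = 8.61e-08). Rfxank, a subunit of RFX, had a log2 fold change of 0.59 in the authors' deposited table, and Nfyc, a subunit of NF-Y, fell by 0.93. Of 7 endolysosomal genes, the proteases Ctsb and Ctsl were higher, by 0.69 and 0.61, while the protease inhibitor Cst3 and the protease Lgmn fell by 0.53 and 0.63 in the authors' deposited table. Ctsd, an abundant protease of the list, had a log2 fold change of 0.02 (adjusted p = 0.955). In a list of 7 genes these counts are too small to set apart from the shares of all genes. Of 4 costimulation genes with a row, the ligands Icosl and Cd86 were higher by 0.83 and 1.15 in the authors' deposited table. The voom fit held 4 costimulation genes and called 2 higher, and 1 without Control library b or d or KO library b or d. Cd274, the most abundant of them, had a lower mean in KO, 11.1 against 15.7 RPKM, and so had Icam1, 1.79 against 2.21. Both overlapped between the genotypes. The summed level of the 4 ran from 18.1 to 22.7 RPKM in Control and from 11.8 to 19.1 in KO.

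Some markers of immune cells were also higher in KO at 22 °C. Of 9 pan-leukocyte genes 4 were higher and 0 lower in the authors' deposited table: Cd48, Ptprc, Rac2 and Cd52, and their median log2 fold change was 0.85. Ptprc, the leukocyte phosphatase CD45, stood at 4.05, 3.43, 3.02 and 3.07 RPKM in Control and at 4.56, 7.02, 4.59 and 5.58 in KO, with no overlap. The summed level of the 9 ran from 22.6 to 31.3 RPKM in Control and from 31.9 to 57.3 in KO. Of 5 T cell markers with a row out of 12, 4 were higher in the authors' deposited table: Cd3g, Lck, Cd2 and Cd3e, the first by 2.64 on the log2 scale from 0.291 to 1.68 RPKM. Of 9 dendritic cell markers 4 were higher, Itgax, Clec9a, Itgae and Cd83, all below 3 RPKM in both groups, while the summed level of 7 of these markers overlapped, at 10.7 to 14.8 RPKM in Control and 11.3 to 14.2 in KO. Zbtb46, the most abundant of those 7, had a lower mean in KO, 3.93 against 5.49 RPKM, and so had Cd209a, 0.399 against 1.04. Both overlapped between the genotypes. By limma voom 2 of those 7 were called higher and 0 lower. Without Control library b 1 was called higher, and without KO library c 2 were called higher and 1 lower. Of 14 macrophage markers 2 were higher, Mertk and Lgals3, a share near that of all genes, while the most abundant, Lyz2, had an adjusted p of 0.291 in the authors' deposited table. Summed macrophage levels overlapped, at 74.4 to 106 RPKM in Control and 91.5 to 133 in KO. Only 2 of 14 B cell markers had a row, Cd79b and Bank1, both below 1 RPKM. Of 8 endothelial markers 0 passed in either direction. The part of these cells in the class II difference was not tested.

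**Figure D3:**
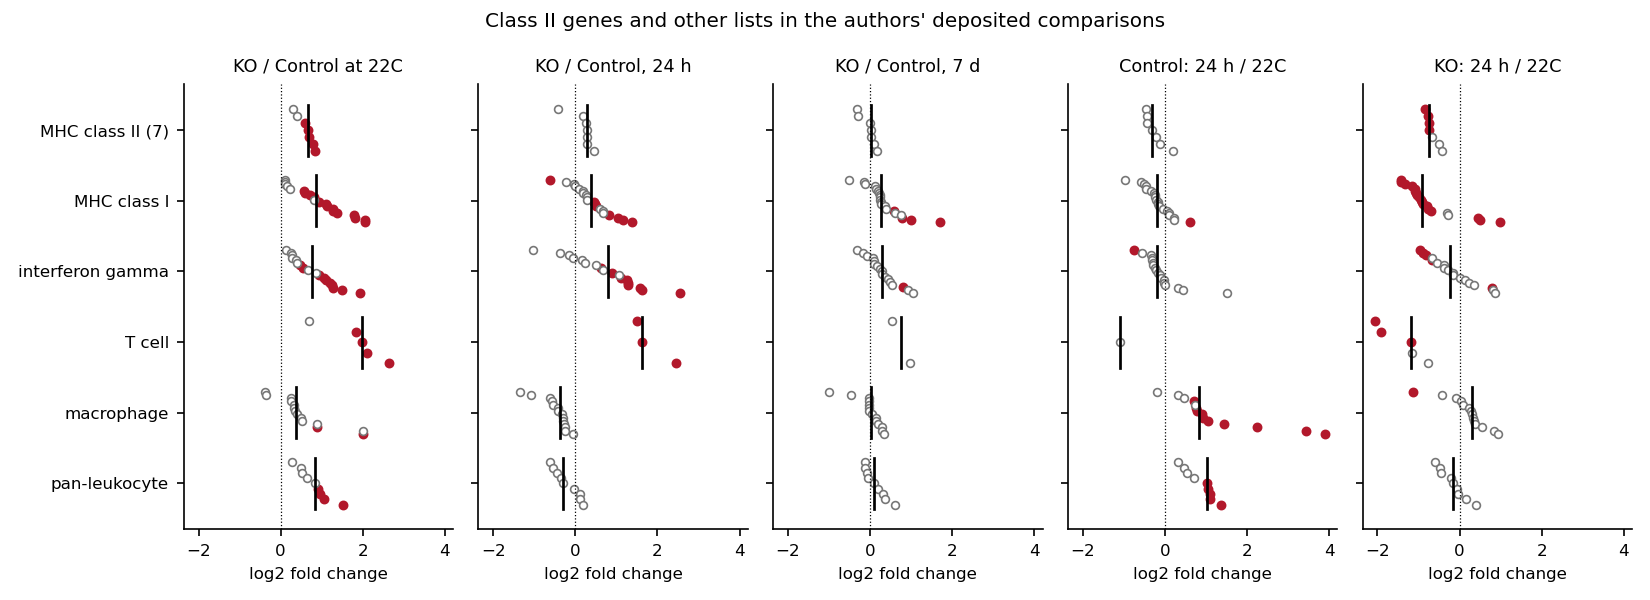
Log2 fold changes in the authors' 5 deposited comparisons (x axis) for the genes of 6 lists (y axis), filled where the adjusted p is under 0.05, with a bar at the list median. The class II genes sit to the right at 22 °C in KO, to the left in KO after 24 h of recovery, and the macrophage and pan-leukocyte lists sit to the right in Control after 24 h.

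KO against Control after recovery asks whether the genotypes still differ once the cold has passed. After 24 h of recovery 0 of the 7 class II genes passed in the authors' deposited table, where 10.5% of genes were higher and 7.96% lower. At an unadjusted p under 0.05 the count was 0 there and 1 by limma voom. The log2 fold changes in the authors' deposited table ran from -0.42 for H2-DMb1 to 0.46 for H2-Aa. H2-Aa stood at 73.2, 62.4, 27.7 and 26.3 RPKM in Control and at 48.7, 72.5, 68.0 and 43.7 in KO. Control libraries a and b lay among or above the KO libraries, and Control libraries c and d were below all of them.

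All 7 genes overlapped between the genotypes after 24 h in scaled RPKM, where 11.4% of genes were higher and 9.26% lower without overlap. Without Control library a, the voom count became 1 in place of 0, beside 11.4% of genes higher in the fit of all libraries, with H2-Aa at a log2 fold change of 0.77 (adjusted p = 0.0343). Class I genes were still higher in 7 of 20 and lower in 1 in the authors' deposited table, led by B2m at a log2 fold change of 1.16 and Psmb8 at 1.37. Interferon gamma genes were higher in 9 of 18, led by Cxcl9 at 1.63 and Iigp1 at 2.55 log2 in the authors' deposited table. KO library b stood apart from its group in both lists. The summed level of the interferon gamma genes was 367 RPKM in it, against 114 to 131 in the other KO libraries and 104 to 142 in Control. The summed class I level was 369 RPKM in it, against 188 to 203 in the other KO libraries and 178 to 221 in Control. The voom fit called 3 of the 14 interferon gamma genes that it held higher. It called 1 higher without KO library b or without Control library a, b or c, 2 without KO library c and 5 without KO library d. Without Control library a 1 of them was also called lower. The fit called 3 of 15 class I genes, and 3 or 4 with any 1 library left out. Without Control library a these were 3 higher and 1 lower. KO library b also had 43.8 RPKM of Mylpf, whose part in these levels was not tested. Pan-leukocyte and macrophage markers passed in 0 of 9 and 0 of 14. The voom fit called 2 of the 2 T cell markers that it held higher, Cd2 and Cd3g, and 1 without Control library a. Their summed level was 0.838 to 1.53 RPKM in KO and 0.115 to 0.479 in Control, on 0 to 12 reads per gene and library.

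After 7 d of recovery 0 of the 7 genes passed in the authors' deposited table, where 9.18% of genes were higher and 6.14% lower. At an unadjusted p under 0.05 the count was 0 in that table and 0 by limma voom. Cd74 stood at 62.0, 84.1, 66.0 and 87.5 RPKM in Control and at 92.8, 70.5, 63.1 and 77.0 in KO. H2-Eb1 stood at 26.3, 33.7, 27.7 and 38.8 RPKM in Control and at 43.5, 29.6, 29.8 and 32.0 in KO. The genotypes were interleaved for both genes, and all 7 overlapped in scaled RPKM, where 11.8% of genes were higher and 10% lower without overlap. The 7 log2 fold changes in the authors' deposited table ran from -0.32 for H2-DMa to 0.16 for H2-Eb1, with a median of 0.02. Class I genes were higher in 4 of 20 there, Psmb8, B2m, Psmb10 and Psmb9, and interferon gamma genes in 1 of 17, Cxcl9. The voom fit called 4 of 15 class I genes too, but 1 without Control library a and 2 without Control library b. Of the regulators, Rfxank was higher by 0.82 on the log2 scale while Rfx5 and Nfyb fell by 0.79 and 0.54 in the authors' deposited table.

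Whether the effect of Hdac3 loss differed between times was tested as a difference of effects. From 22 °C to 24 h of recovery it was taken from the recovery effects of KO and Control in the authors' deposited tables, with errors rebuilt from their p-values, and was -0.34 ± 0.35 log2 (rebuilt SE) for H2-Aa, -0.39 ± 0.31 for H2-Eb1 and -0.31 ± 0.33 for Cd74. None of the 7 passed, beside 6.96% of 10923 genes that were lower, and at an unadjusted p under 0.05 the count was 0 by this test and 0 by limma voom, where 7.07% of genes were lower after adjustment. From 22 °C to 7 d the difference was -0.51 ± 0.31 log2 for H2-Eb1, -0.51 ± 0.33 for Cd74 and -0.66 ± 0.36 for H2-Ab1. None of the 5 members with a rebuilt error passed, beside 5.29% of 10591 genes that were lower. The voom contrast gave all 7 values, from -0.83 for Ciita to -0.48 for Cd74, of which 0 passed, beside 5.5% of genes lower. Of these, 1 gene, H2-Aa, had a voom p under 0.05 before adjustment and a Benjamini-Hochberg adjusted p of 0.159 by limma. From 24 h to 7 d 0 members passed by either test, beside 0.115% of genes higher and 0.0863% lower by the rebuilt errors and 0.00904% higher and 0% lower by voom, and at an unadjusted p under 0.05 the count was 0 by both. A call in KO at 22 °C and none at later times is thus not shown to be a difference between times.

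Recovery against 22 °C within a genotype asks what the cold exposure leaves behind. In Control after 24 h, 0 of the 7 genes passed in the authors' deposited table, where 13.1% of genes were higher and 8.67% lower. At an unadjusted p under 0.05 the count was 1 there and 3 by limma voom. The log2 fold changes ran from -0.45 for H2-Eb1 to 0.21 for H2-DMb1 in the authors' deposited table.

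The Control libraries after 24 h split into a high and a low pair. Cd74 stood at 80.6, 76.1, 27.2 and 35.6 RPKM in libraries a to d, against 68.8 to 86.0 at 22 °C. H2-Ab1 stood at 49.2, 40.5, 15.1 and 17.0 RPKM, and Ciita at 1.28, 1.20, 0.294 and 0.644. Libraries a and b lay near the 22 °C range of these genes, and c and d lay below it. Ptprc followed the same split, at 7.04, 5.57, 1.95 and 1.95 RPKM. Without library a, voom called 3 members lower, H2-Aa, H2-Eb1 and Cd74, and without library b it called 2, H2-Eb1 and Cd74, beside 11.9% of genes lower in the fit of all libraries. Summed macrophage markers ran from 79.4 to 326 RPKM in this group and summed pan-leukocyte genes from 21.9 to 75.2. Library c had 79.8 RPKM of Mylpf and the others 0.445 to 0.881. The part of these cells and of muscle in the split was not tested.

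Macrophage, leukocyte and endolysosomal genes were among those called higher in this comparison, in which 0 class II members passed. Of 14 macrophage markers 10 were higher and 0 lower in Control after 24 h in the authors' deposited table. The lectin Lgals3 had a log2 fold change of 3.43 there and the lysosomal protein Cd68 one of 2.25. The receptor Trem2 had one of 3.90 and lysozyme Lyz2 one of 1.45. Trem2 rested on 0 to 4 reads per library at 22 °C and on 2 to 65 at 24 h, and its RPKM overlapped. Lgals3 ran from 5.26 to 83.1 RPKM at 24 h and from 2.38 to 3.95 at 22 °C. Of 9 pan-leukocyte genes 5 were higher, among them Arhgdib, Cd48, Laptm5 and Vav1. The voom fit called 5 of the 13 macrophage markers that it held, 1 without Control 24 h library a or b or Control 22 °C library b or c, 2 without Control 22 °C library a or d, and 9 without Control 24 h library d. It called 3 of 9 pan-leukocyte genes, 1 without Control 24 h library a and 5 without library c or d. These counts thus rest on single libraries. Of 7 endolysosomal genes 5 were higher, with Ctsd, Lgmn, Ctsb and Ifi30 at log2 fold changes of 0.92, 1.15, 0.61 and 1.07 in the authors' deposited table. The fifth, Ctss, the protease that trims the invariant chain in presenting cells, rose from 9.85 to 33.0 RPKM with a log2 fold change of 1.77 there. Its libraries ran from 9.69 to 62.5 RPKM at 24 h and from 7.58 to 11.7 at 22 °C. The summed level of 4 of the endolysosomal genes was 248, 189, 121 and 106 RPKM in Control 24 h libraries a to d, against 95.4 to 115 at 22 °C. Spi1, a myeloid transcription factor, and Nfyc were the regulators that rose, by 1.67 and 0.39.

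In KO after 24 h of recovery, 4 of the 7 class II genes were lower than at 22 °C in the authors' deposited table, beside 19.8% of 12577 genes. H2-Eb1 fell by 0.84 on the log2 scale (adjusted p = 5.15e-04), H2-Aa by 0.77 (adjusted p = 0.00571), Cd74 by 0.75 (adjusted p = 0.00413) and H2-Ab1 by 0.74 (adjusted p = 0.0105) in that table. Ciita, H2-DMb1 and H2-DMa had log2 fold changes of -0.67, -0.51 and -0.43 in the authors' deposited table, with adjusted p of 0.0774, 0.232 and 0.267.

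The KO libraries at 24 h stood at 53.5, 80.9, 62.0 and 43.1 RPKM for Cd74 and at 24.1, 35.5, 27.2 and 21.9 for H2-Eb1. Both lay below all KO libraries at 22 °C, whose lowest values were 84.9 and 38.8. In RPKM these 2 members were lower without overlap, beside 18.1% of genes, and in scaled RPKM 4 were, beside 19.4%. The voom fit called the same 4 genes, beside 22.1% of genes. In it H2-Aa, H2-Eb1 and Cd74 stayed past the threshold in 8 of 8 fits with 1 library left out, H2-Ab1 in 7.

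Class I genes changed alongside in KO: 15 of 20 were lower and 3 higher in the authors' deposited table, beside 19.8% of genes lower and 22.1% higher. H2-K1 and H2-D1, the classical heavy chains, fell by 1.05 and 1.04 on the log2 scale and Tap2 by 1.09, while the chaperone Calr rose by 0.99 in the authors' deposited table. Of 18 interferon gamma genes 4 were lower and 1 higher, so the share lower was near that of all genes. The kinase Jak2, Ifngr1 and Irf1 fell by 0.81, 0.96 and 0.89 in that table. The voom fit called 4 of 14 interferon gamma genes lower, and 9 without KO 24 h library b. Of 5 T cell markers 3 were lower, Cd247, Cd2 and Cd3e, whereas 0 of 9 pan-leukocyte genes passed and 1 of 14 macrophage markers, Mertk, fell. Of the 2 T cell markers in the voom fit 1 was called lower, and 2 without KO 22 °C library a. Of 10 regulators, Irf4 fell by 2.76, Rfx5, a subunit of RFX, by 1.02 and Nfyb by 0.53, and Nfyc rose by 1.56 on the log2 scale in the authors' deposited table. The fall of Irf4 took it from 51.5 to 7.84 RPKM.

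No deposited table compares 7 d with 22 °C, so these comparisons come from the voom fit alone. In KO, 3 of the 7 genes were lower at 7 d than at 22 °C, beside 21% of 11065 genes: H2-Ab1 fell by 0.59 ± 0.24 log2 (SE, adjusted p = 0.0470), H2-Aa by 0.56 ± 0.23 (adjusted p = 0.0484) and H2-Eb1 by 0.54 ± 0.20 (adjusted p = 0.0303). Cd74 had a log2 fold change of -0.42 ± 0.21 (adjusted p = 0.109). The count fell to 0 without KO 22 °C library b or d, or KO 7 d library b, c or d. All 7 genes overlapped in scaled RPKM, where 21.1% of genes were higher and 18.7% lower without overlap. In Control 0 members passed, beside 8.78% of genes higher and 6.66% lower, the count at an unadjusted p under 0.05 was 0, and the fold changes ran from -0.05 to 0.23 log2. From 24 h to 7 d 0 members passed in either genotype, beside 1.68% of genes higher and 1.98% lower in Control and 2.58% higher and 2.86% lower in KO. The counts at an unadjusted p under 0.05 were 3 in Control and 0 in KO.

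By mean RPKM, KO at 22 °C ranked first of the 6 groups for all members but H2-DMb1, which was highest in Control at 24 h, at 4.60 ± 2.35 RPKM (SD, n = 4), while in scaled RPKM it ranked first for all 7. Control at 24 h ranked last for H2-Aa, H2-Ab1, H2-Eb1, Cd74 and Ciita. For H2-Aa the order was KO 22 °C at 97.3 ± 24.3, Control 7 d at 69.6 ± 17.0, KO 7 d at 67.2 ± 11.9, Control 22 °C at 65.7 ± 11.1, KO 24 h at 58.2 ± 14.1 and Control 24 h at 47.4 ± 24.0 RPKM. Each group overlapped its neighbours in this order.

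Within groups the 7 genes moved together from library to library. After each group's mean was taken off log2 RPKM, the 21 pairs of members had Pearson r from 0.70 to 0.96 over 24 libraries, with a median of 0.85. The 6 pairs among H2-Aa, H2-Ab1, H2-Eb1 and Cd74 had r from 0.92 to 0.96. These are descriptions, since the values share library totals, and the Control 24 h libraries have the widest range.

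Cd74 was set against summed marker lists in the same way, with 4 relations tested by permutation within groups. Against the 9 pan-leukocyte genes Pearson r was 0.883 (permutation p = 3.9e-04, adjusted p = 0.00156) and Spearman's rho 0.836 (permutation p = 7.2e-04, adjusted p = 0.0014). Without the 2 libraries farthest from the median r was 0.806, and without the Control 24 h libraries 0.703. With group means left in, the pooled r was 0.434. Against 13 macrophage markers r was 0.816 and rho 0.817 (permutation p = 0.00493 and 0.00105, adjusted p = 0.00663 and 0.0014), against 7 dendritic markers 0.775 and 0.804 (permutation p = 0.00497 and 6.8e-04, adjusted p = 0.00663 and 0.0014). Without the 2 farthest libraries these r were 0.763 and 0.702, without the Control 24 h libraries 0.617 and 0.640, and pooled 0.206 and 0.405. Against 2 T cell markers r was 0.463 and rho 0.415 (permutation p = 0.0709 and 0.097, unchanged by adjustment), and r was 0.260 without the 2 farthest libraries, 0.406 without the Control 24 h libraries and 0.592 pooled. Library totals and the share of leukocytes are common to both sides of each relation.

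**Figure D4:**
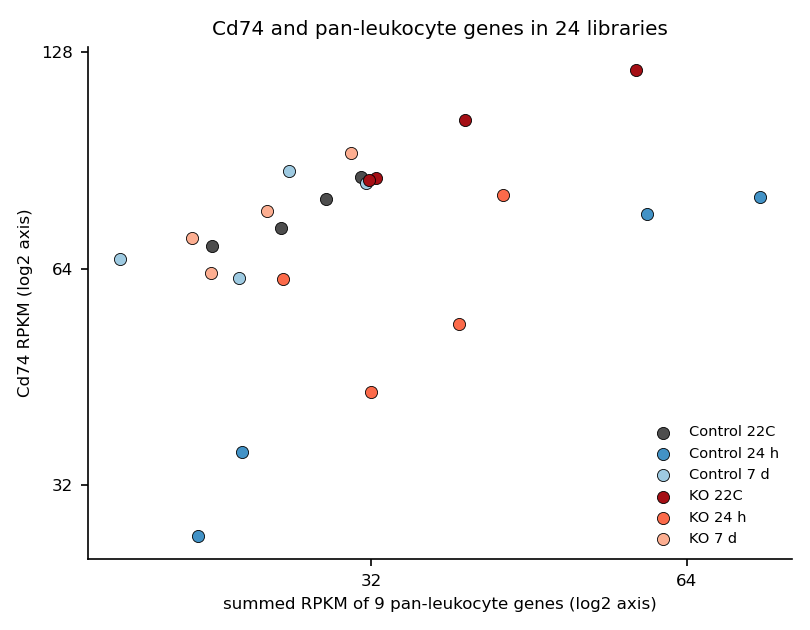
Cd74 RPKM (y axis, log2) against the summed RPKM of 9 pan-leukocyte genes (x axis, log2), 1 point per library, coloured by group. Control 24 h libraries a and b lie far to the right of the other Control libraries, at Cd74 levels of 80.6 and 76.1 RPKM.

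The ratio of Cd74 to Ptprc RPKM within a library, which depends on neither library total nor scaling, gave another order of the groups. It was 22.8 ± 2.25 (SD, n = 4) in Control at 22 °C, 14.3 ± 2.84 at 24 h and 23.1 ± 2.57 at 7 d. In KO it was 18.2 ± 0.690 at 22 °C, 15.5 ± 5.30 at 24 h and 26.9 ± 2.92 at 7 d. All 4 KO libraries at 22 °C, 17.2 to 18.8, lay below the Control libraries, 19.8 to 25.1, while Cd74 itself was higher in KO. All 4 Control libraries at 24 h, 11.4 to 18.2, lay below those of Control at 22 °C and at 7 d.

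Of the 9 comparisons of this ratio, 5 did not overlap and had an exact two-sided permutation p of 0.0286, the smallest that 4 libraries against 4 allow, and 0.0514 after adjustment over the 9. None therefore passed 0.05 after adjustment. Their log2 differences were -0.32 for KO against Control at 22 °C, -0.69 and 0.70 in Control from 22 °C to 24 h and from 24 h to 7 d, and 0.56 and 0.86 in KO from 22 °C to 7 d and from 24 h to 7 d. At 22 °C, 66.3% of all genes were lower per Ptprc in KO without overlap, so the ratio of Cd74 did as most genes did there. From 22 °C to 24 h in Control, 0.804% of genes were lower per Ptprc without overlap, and 2 of the 7 members, Cd74 and H2-Aa, were among them. From 24 h to 7 d in Control, 5 of the 7 members were higher per Ptprc without overlap, beside 0.163% of genes. In KO from 24 h to 7 d 4 were, beside 13.2%. From 22 °C to 7 d in KO 4 members were higher, beside 55.5% of genes. Ptprc itself ran from 1.95 to 7.04 RPKM in Control at 24 h, so a gene that does not follow it can hardly separate. The small shares in Control thus do not measure how unusual the members are. No share over genes that follow Ptprc was computed. With the sum of the pan-leukocyte genes in place of Ptprc, the direction was the same in all 9 comparisons of Cd74.

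**Figure D5:**
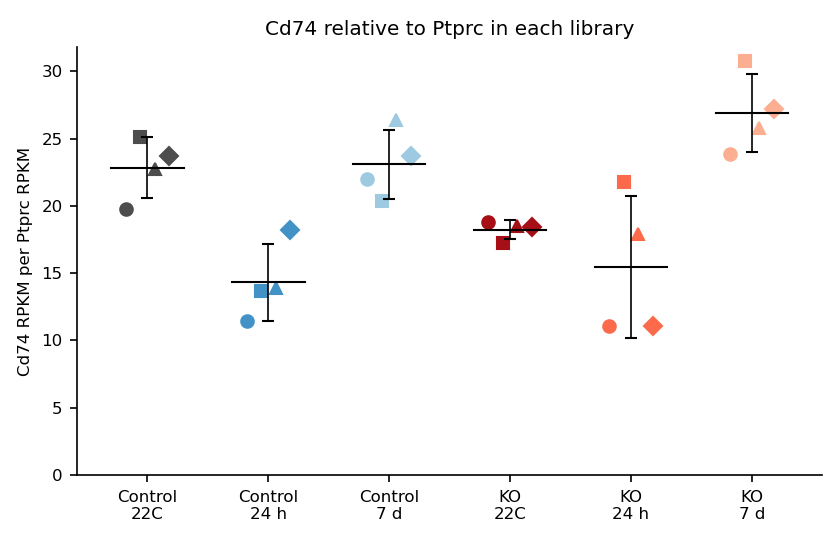
Cd74 RPKM divided by Ptprc RPKM (y axis) in the 4 libraries of each group (x axis), 1 marker shape per library letter, with bars for the mean and SD. The Control libraries at 24 h, at 11.4 to 18.2, lie below those at 22 °C and 7 d.

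The mean profile of the 7 members over the 6 group means was set against 11464 other genes. The 8 most alike were Hpgd, Car3, Ccdc6, Vsig2, Gpr64, Xpc, Steap4 and Zscan26, with Pearson r from 0.995 to 0.977 over 6 means. Hpgd, a prostaglandin-degrading enzyme, had deposited means at 22 °C of 3.68 RPKM in Control and of 5.33 RPKM in KO. Car3, a carbonic anhydrase abundant in fat, had 3250 and 7086 RPKM. Of the genes ranked, 197 reached r of 0.9, so many genes share this profile. Of the members themselves H2-Ab1 was closest to their mean profile at 0.984 and H2-DMb1 farthest at 0.396.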

How the data were processed

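Total RNA depleted of ribosomal RNA was sequenced from 24 libraries, 4 per group. STAR, featureCounts, edgeR and build mm9 are named per the submitters' processing notes; their versions, the strand setting and the treatment of shared reads are not given in the sources used here. Each of the 5 deposited tables compares 2 groups and gives, per the file headers, p-values from edgeR before and after adjustment, log2 fold changes, log2 CPM averages and a mean level per group. The headers name no unit for the means: the values fit deposited RPKM on library totals, and they carry no normalization factor.

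The main calls are the deposited adjusted p under 0.05. A count test with edgeR had been planned for tables with counts per library, which these tables do not hold. The deposited means have 15 digits, so the whole reads of 4 libraries behind a mean were searched for up to 9000 reads. Of 74538 means searched, 72590 (97.4%) had exactly 1 solution, 1929 had several and 19 none, and 11065 genes were solved in all 6 groups. On simulated means, 596 of 600 were solved and 0 wrongly. The solved genes hold 22.5% to 28.6% of library totals, and abundant genes are missing from them.

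The recovered reads were fitted with limma 3.58.1 (voom, 6 groups, median-ratio factors, Benjamini-Hochberg adjustment) in R 4.3.3, as an alternative chosen after seeing the data; the overlap of scaled RPKM and the counts of the other gene lists with 1 library left out were added likewise. On simulated counts for KO against Control at 22 °C, 131 of 200 genes changed by 2-fold were recovered among 11065, with 5 false calls. Errors of differences between deposited fold changes were rebuilt from p-values up to 0.9. Data were also simulated for the difference from 22 °C to 24 h. Of 173 genes changed by 2 on the log2 scale, 144 were recovered among 10923, with 7 false calls. In both simulations the change was larger than that of any member, so recovery at the size of the members was not measured. Correlations used 100000 permutations. Other steps used Python 3.11.15, numpy 2.4.6, scipy 1.17.1, pandas 2.3.3, numba 0.67.0 and matplotlib 3.10.9.

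All 7 members are named in each table, and from each other list up to 4 genes with the smallest deposited p among those past the threshold plus the most abundant gene; some genes that this rule names are not reported here. Ctss, Cd79b and Bank1 were named after their values were seen. The 8 genes of most similar profile are those with the highest Pearson r over 6 group means. The members and lists were chosen with earlier results of these data known.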

Additional observations from a re-analysis of the deposited data

Results flagged for a closer look

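Each group of 4 libraries was searched for a library far from the other 3, for the 7 members and Ptprc, which gave 48 groups. The gap to the nearest library had to exceed Dixon's 95% critical share of the whole range, which chance alone passes in about 1 in 20 groups, and 2 groups passed. H2-Eb1 in KO 7 d library a stood at 43.5 RPKM, while the other libraries stood at 29.6 to 32.0. This library also had 283 RPKM of the muscle gene Mylpf. Its summed macrophage level was 126 RPKM, against 63.1 to 89.3 in the other KO 7 d libraries. Its Ptprc level was 3.89 RPKM, against 2.29 to 2.83 in the others. The part of muscle tissue or of immune cells in its H2-Eb1 level was not tested. Ciita in KO 24 h library b stood at 1.42 RPKM, while the other libraries stood at 0.729 to 0.808. This library had 43.8 RPKM of Mylpf, and the others had 0.332, 5.09 and 6.83. Its summed level of interferon gamma genes was 367 RPKM, against 114 to 131 in the other KO 24 h libraries. The part of muscle tissue or of interferon gamma signalling in its Ciita level was not tested either.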

How the results depend on the processing

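No paired analysis was possible because the recovered libraries carry no replicate number, so replicates were left out by recovered library, in the voom fit, an alternative chosen after seeing the data. In KO against Control at 22 °C the count of 5 members higher became 2 at an adjusted p under 0.01 and 0 with a log2 fold change of at least 1, and ran from 2 to 5 with 1 library left out. In KO at 24 h against 22 °C the 4 members lower became 0 with a log2 fold change of at least 1 and ran from 3 to 5. Counts with 1 library left out ran from 0 to 1 for KO against Control at 24 h, from 0 to 3 lower for Control at 24 h against 22 °C, and from 0 to 3 lower for KO at 7 d against 22 °C.

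Signs turned with 1 library left out for values near 0. In KO against Control at 7 d the log2 values ran from -0.063 to 0.20 for H2-Aa, from -0.089 to 0.16 for H2-Ab1 and from -0.13 to 0.23 for Ciita. In Control at 24 h against 22 °C they ran from -0.10 to 0.37 for H2-DMb1 and from -0.47 to 0.17 for Ciita. The difference of KO effects ran from -0.36 to 0.092 for H2-DMa from 22 °C to 24 h, and from -0.38 to 0.025 for H2-Eb1 and from -0.21 to 0.26 for H2-DMb1 from 24 h to 7 d. Cd74 per Ptprc ran from -0.12 to 0.21 log2 for KO against Control at 24 h and from -0.051 to 0.075 for Control at 7 d against 22 °C.

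Ratios of the deposited means, without normalization factors, lie 0.23 log2 below the deposited fold changes in KO against Control at 22 °C, where they gave 0.44 for H2-Eb1 and 0.36 for Cd74. They give no count of calls. The cause of these changes was not tested. Low reads limit Ciita, H2-DMa and H2-DMb1.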
